A study of Mus musculus with 6 samples.

Results

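The 7 genes described here, Gp2, Msln, Prnp, Anxa5, Cyba, Marcksl1 and Tnfaip2, encode surface and effector proteins used as markers of microfold (M) cells. They were taken by name with earlier results of these data known, as were the lists of other genes used for comparison. The shares of these genes and windows called are therefore descriptions and not tests. Each of the 7 genes received every deposited 200-bp chromatin window whose nearest protein-coding gene end was its own and lay within 50 kb. This rule used positions only and gave 15 of 55056 windows, 9 outside and 6 inside the gene bodies, for 7 of the 16018 genes that had any window. Another 2 windows nearest to these genes lay farther out, at 96676 bp from Anxa5 and 109620 bp from Gp2, and were left out. Windows in or within 50 kb of a gene but nearer to another gene were not counted for it. These were 9 of 10 for Msln, 6 of 7 for Cyba and 6 of 9 for Anxa5. They were 4 of 6 for Marcksl1, 4 of 6 for Tnfaip2, 2 of 5 for Prnp and 0 of 3 for Gp2.

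Open chromatin was measured by ATAC-seq of whole cultures, an assay that reads where the enzyme Tn5 can cut and tag DNA, in organoids grown from the small intestine of 1 female Lgr5GFPDTR/+ mouse, a line that the labels call line26 wild type. The RANKL group (n = 3) had 3 days in ENR medium with 3 µM CHIR99021, a GSK3 inhibitor, and 1.5 mM valproic acid, then 1 day in ENR, then 6 days with 100 ng/ml RANKL. The control group (n = 3) was sampled on day 6 in ENR medium, which holds EGF, Noggin and R-spondin 1. Both groups shared the line, and the labels number the same 3 experiments in each, with 50000 cells per library. The labels do not say whether control cultures received CHIR99021 and valproic acid, so RANKL and this pretreatment cannot be told apart; names of the control libraries start with CVENR, a code left unexplained. In these bulk libraries, a larger share of M cells and more open DNA per cell cannot be told apart either.

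Library totals ran from 322173 to 976881 counts, so 3 counts were worth 3.07 to 9.31 CPM (the counts of a window scaled by its library's total over all windows). The shallowest library was RANKL replicate 1, and RANKL libraries correlated less with each other (0.649 to 0.751) than control libraries did (0.807 to 0.862). All 10 epithelial markers had counted windows, with a summed level of 995 to 1050 CPM in controls and 884 to 1015 CPM with RANKL. Of these, 9 could be tested and 1, Krt18, fell.

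M cells are rare epithelial cells that lie over lymphoid follicles of the gut and carry antigens and microbes from the lumen to immune cells beneath. RANKL is a cytokine of the TNF family made by stromal cells beneath the epithelium that covers the follicle. It binds its receptor RANK on crypt cells and directs them to the M cell fate through NF-kB and the Ets factor SPIB. Gp2 binds type 1 fimbriae of bacteria and is a marker of mature M cells, whereas Marcksl1 and Anxa5 are known as markers that appear early.

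The sequences below are the 250 bases before the transcription start of the 3 genes whose promoter held a counted window and reached into no other annotated gene. They come from RefSeq promoters of GRCm38.p6 and are written 5′ to 3′ on the gene's strand. Capitals mark the bases inside the counted window, so that a reader can see which letters the counts cover. They lie at chr4:129513331-129513580 on the plus strand (Marcksl1), chr8:122432941-122433190 on the minus strand (Cyba) and chr2:131909678-131909927 on the plus strand (Prnp).
Marcksl1: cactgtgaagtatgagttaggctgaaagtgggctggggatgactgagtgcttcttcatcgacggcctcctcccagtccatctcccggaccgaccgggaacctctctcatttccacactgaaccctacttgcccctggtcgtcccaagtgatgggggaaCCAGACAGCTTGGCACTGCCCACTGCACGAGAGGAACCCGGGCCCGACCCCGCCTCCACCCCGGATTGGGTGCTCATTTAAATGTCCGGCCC
Cyba: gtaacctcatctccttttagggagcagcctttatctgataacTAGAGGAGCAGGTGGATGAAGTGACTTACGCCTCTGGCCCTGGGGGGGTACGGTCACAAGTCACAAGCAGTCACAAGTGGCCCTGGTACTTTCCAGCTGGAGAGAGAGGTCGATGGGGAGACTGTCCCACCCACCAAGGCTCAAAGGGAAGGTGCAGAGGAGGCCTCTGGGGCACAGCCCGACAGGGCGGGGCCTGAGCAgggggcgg
Prnp: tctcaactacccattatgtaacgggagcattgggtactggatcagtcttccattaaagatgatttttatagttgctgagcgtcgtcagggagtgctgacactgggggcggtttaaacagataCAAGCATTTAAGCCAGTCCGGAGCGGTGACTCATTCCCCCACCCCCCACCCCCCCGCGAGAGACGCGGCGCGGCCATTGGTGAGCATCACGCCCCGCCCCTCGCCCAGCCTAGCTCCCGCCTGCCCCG
The Cyba window lay wholly within its promoter (200 of 200 bases), whereas 92 of these Marcksl1 bases and 128 of these Prnp bases were counted. Their GC content was 60.4% for Marcksl1, 60.0% for Cyba and 58.8% for Prnp, and the median over the same 250 bases of all 32851 promoters in the table was 52.4%. Letters for 5 motifs were searched on both strands in the 6 promoters that the table holds, which leave out Msln. The Ets letters GAGGAA occurred in the capitals of Marcksl1, at -62 to -57 from the start, and 28.3% of all promoters hold them on either strand. The AP-1 letters TGANTCA occurred in the capitals of Prnp, at -102 to -96, and 7.81% of all promoters hold them. Outside counted windows, GAGGAA occurred at 12 to 17 in Gp2 and an NF-kB site at -24 to -15 in Tnfaip2, on the opposite strand, against 8.46% of all promoters for the NF-kB site. ATCAAT (ONECUT; 7.54% of promoters) and CAAAGTCCA (HNF4; 0.475%) occurred in none of the 6.

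The comparison asked where chromatin near these markers differed between RANKL and control organoids. With RANKL, 6 windows near Marcksl1, Msln, Cyba, Tnfaip2 and Prnp were more accessible, and none near the 7 genes was called less accessible. A window was tested when at least 3 libraries held 15.44 CPM or more, and called at an adjusted p at or under 0.05 (edgeR's quasi-likelihood test, Benjamini-Hochberg over all windows tested). Of the 15 windows, 9 were tested, 6 were called higher, 3 were not called and 6 were too low to test. Over all 21618 windows tested, 10.0% were called higher. Since 3 of the called windows reached 15.44 CPM in no control library, they could enter the test only through RANKL libraries. Without this filter 5 of all 15 windows were called higher, against 5.82% of the 55056. In 8 of the 15 windows every RANKL library lay above every control, as was so for 12.4% of all windows. The call on the Prnp window 6929 bp from the gene was the one lost without the filter. With DESeq2 in place of edgeR, 2 windows were called, those upstream of Marcksl1 and near Msln, and the adjusted p of the other 4 ran from 0.0557 to 0.0904.

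**Figure D1:**
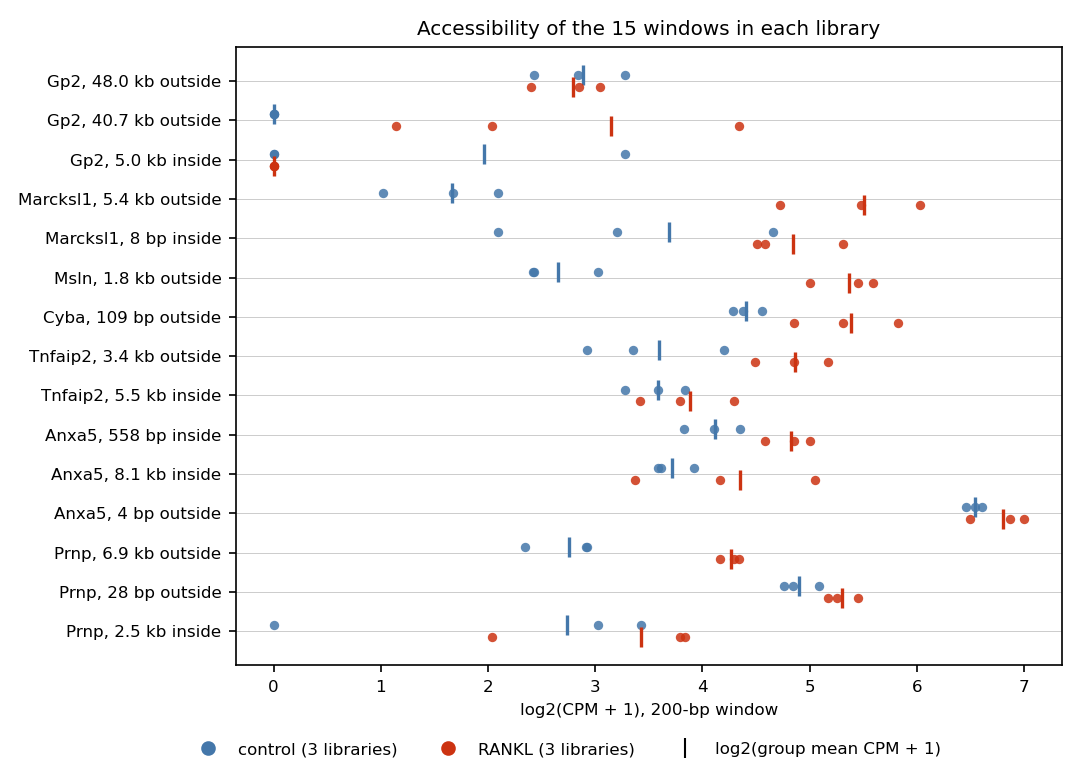
Level of each of the 15 windows in the 6 libraries as log2(CPM + 1), with blue points for control, red points for RANKL and a vertical mark at the log2 of the group's mean CPM plus 1; "outside" and "inside" give the position relative to the gene body and the distance to its nearest end. The Marcksl1 window 5.4 kb outside and the Msln window show the widest gaps, while the Anxa5 start is the highest window in both groups.

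Among the surface proteins, Gp2 gave no call. Gp2 encodes glycoprotein 2, a GPI-anchored protein with a zona pellucida domain, and lies at chr7:119442537-119459272 on the minus strand. The window inside the gene, 5044 bp from its lower end (chr7:119447481-119447680), held 8, 0 and 0 counts in control replicates 1 to 3 and 0 in all RANKL libraries. The window 40727 bp beyond the lower end (chr7:119401710-119401909) held no count in any control and 1, 9 and 1 counts with RANKL, so 1 library supplied most of them and no fold is given. The window 48037 bp beyond that end (chr7:119394400-119394599) held 8, 6 and 2 counts in controls and 2, 2 and 6 with RANKL, and the groups overlapped. No Gp2 window passed the filter, and the promoter held no counted window. Summed over the 3 windows, Gp2 stood at 9.31 ± 7.05 CPM in controls and 13.8 ± 8.50 CPM with RANKL (SD, n = 3), and a difference was not detectable at this depth.
In the surrounding 2 kb, where reads are more numerous, the Gp2 sum was 0.91 ± 0.31 higher on the log2 scale (adjusted p = 0.0244, edgeR on the 2-kb counts), but it was not called once offsets for the trend of fold change with level were added (0.75, adjusted p = 0.0765). Pancreatic acinar cells also make GP2; 4 of 5 of their markers had no counted window, and the remaining one, Cela1, stood at 8.79 to 21.7 CPM in controls and 0 to 36.4 CPM with RANKL.

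Msln rose with RANKL. It encodes mesothelin, a GPI-anchored surface protein made from a precursor, at chr17:25748613-25754378 (strand not in the tables used). Its only window by the nearest-end rule, 1763 bp beyond the higher-coordinate end (chr17:25756041-25756240), stood at 4.34, 7.17 and 4.39 CPM in controls and 31.0, 42.9 and 47.1 CPM with RANKL. All RANKL libraries lay above all controls, and the rise was 2.93 ± 0.45 on the log2 scale (adjusted p = 7.59e-09, edgeR). Reads in the surrounding 2 kb numbered 11, 25 and 8 in controls and 48, 89 and 138 with RANKL, a rise of 2.91 ± 0.25 (adjusted p = 8.82e-14, edgeR on 2-kb counts). The rise was thus of like size in the centre and in its surroundings. Mslnl, the mesothelin-like gene that lies 259 bp from Msln, had 1 window, at 19.9 CPM in controls and 14.4 CPM with RANKL, and its difference of -0.48 ± 0.49 did not pass the test (adjusted p = 0.561, edgeR). Mesothelial cells also express Msln: 2 of their 3 markers, Wt1 and Upk3b, had windows, with a summed level of 6.59 to 10.9 CPM in controls and 31.0 to 40.7 CPM with RANKL, and Lrrn4 had none. Both were too low to test, and their part in the Msln result was not tested.

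Prnp showed a change upstream of the gene and none that passed the test at its start. It encodes the cellular prion protein, a GPI-anchored protein known on M cells as a receptor for bacteria, at chr2:131909928-131938436 on the plus strand. The annotation also holds Prn, a locus that shares this start and spans Prnp and its paralogue Prnd, so both upstream windows belong to Prn as well. The window 6929 bp upstream (chr2:131902899-131903098) stood at 6.52, 4.09 and 6.59 CPM in controls and 18.6, 19.3 and 16.9 CPM with RANKL. Every RANKL library lay above every control, on 6, 4 and 3 counts against 6, 9 and 14. It rose by 1.71 ± 0.60 on the log2 scale (adjusted p = 0.0252, edgeR), but the call was lost without the filter (adjusted p = 0.0589) and with the experiment number as a replicate block (adjusted p = 0.0723). Leaving out control replicate 3 also ended it (adjusted p = 0.0620), as did leaving out RANKL replicate 1 (0.0938) or 2 (0.151). Without any 1 of the other 3 libraries the window did not pass the filter, so no fit with a library left out kept the call. The 2-kb counts around it rose by 1.51 ± 0.44 (adjusted p = 0.00908, edgeR on 2-kb counts).
At the start, the window shown in capitals above (chr2:131909800-131909999) stood at 26.1, 27.6 and 33.0 CPM in controls and 37.2, 42.9 and 35.0 CPM with RANKL. The groups did not overlap, yet the difference of 0.47 ± 0.31 did not pass the test (adjusted p = 0.300, edgeR). The third window, inside the gene 2486 bp from its far end (chr2:131935850-131936049), held 9, 7 and 0 counts in controls and 1, 6 and 11 with RANKL and was too low to test. Upstream counts were 0.25, 0.148 and 0.2 of those at the start in control replicates 1 to 3, and 0.5, 0.45 and 0.483 in RANKL replicates 1 to 3. The exact permutation test gave p = 0.1, two-sided, the smallest that 3 against 3 allows, and 0.133 after adjustment over the 4 such pairs of windows compared.

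Anxa5 was open in both groups and gave no call. It encodes annexin A5, which binds phosphatidylserine in the presence of calcium, at chr3:36448923-36475887 on the minus strand. Its start window (chr3:36475791-36475990) also reaches the promoter of 1810062G17Rik, a gene 50 bp away, so the counts cannot be given to either alone. It stood at 86.9, 92.1 and 96.7 CPM in controls and 127, 116 and 89.3 CPM with RANKL. RANKL replicate 3 lay among the controls, and the difference was 0.26 ± 0.17 on the log2 scale (adjusted p = 0.294, edgeR). In the surrounding 2 kb the sign depended on the scaling: 2-kb counts gave -0.13 ± 0.15 (adjusted p = 0.630, edgeR) and 0.18 with loess offsets (adjusted p = 0.398). The deposited 2-kb score gave a difference of 0.28 (adjusted p = 0.111, limma), which passed without RANKL replicate 1 (0.32, adjusted p = 0.0426) or RANKL replicate 3 (0.36, adjusted p = 0.0482). The window inside the gene near its far end (558 bp, chr3:36449381-36449580) stood at 16.3 ± 3.13 CPM in controls and 27.3 ± 4.08 CPM with RANKL (SD, n = 3), with no overlap between groups. Its difference of 0.69 ± 0.40 did not pass the test (adjusted p = 0.233, edgeR). Counts there were 0.188, 0.211 and 0.136 of those at the start in control replicates 1 to 3. With RANKL they were 0.244, 0.241 and 0.257 of those at the start (exact permutation p = 0.1, two-sided, adjusted 0.133). The window 8058 bp inside (chr3:36467729-36467928) held 13, 11 and 5 counts in controls and 3, 15 and 14 with RANKL, and was too low to test.

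**Figure D2:**
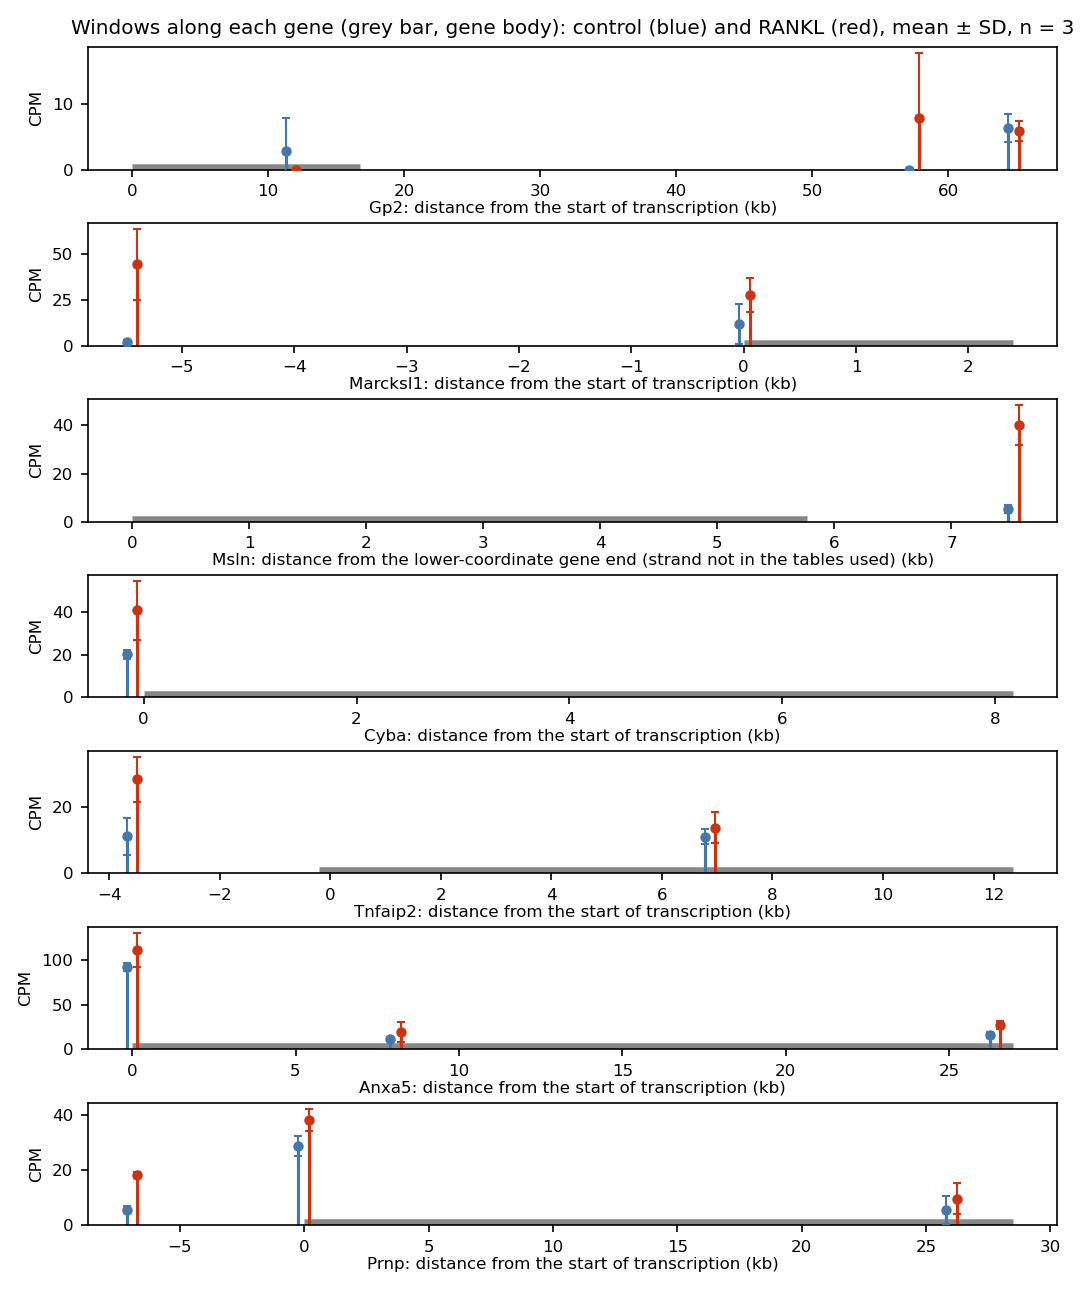
Mean CPM ± SD (n = 3) of each window along its gene, with distance in kb from the transcription start (downstream positive; Msln from its lower-coordinate end), the gene body as a grey bar, control in blue and RANKL in red, drawn side by side at each window. The rises at Marcksl1, Tnfaip2 and Prnp were called at windows 3.4 to 6.9 kb outside the gene and, for Marcksl1, also at the start, whereas of the 5 windows deeper inside genes 1 was tested, in Anxa5, and it gave no call.

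Cyba had its only window by the nearest-end rule at the promoter. It encodes p22phox, the membrane subunit that NADPH oxidases share, at chr8:122424771-122432940 on the minus strand. The window shown in capitals above (chr8:122432949-122433148, 109 bp upstream) stood at 18.5, 22.5 and 19.8 CPM in controls and 27.9, 38.6 and 55.5 CPM with RANKL. The groups did not overlap, and RANKL replicate 3 was the highest. The rise was 1.15 ± 0.32 on the log2 scale (adjusted p = 0.00391, edgeR), and it was lost without RANKL replicate 3 (0.78, adjusted p = 0.225). With the replicate block it stood at 1.01 (adjusted p = 0.0251). All 3 controls passed 15.44 CPM, so this window entered the test from both groups. Its 2-kb counts rose by 0.74 ± 0.20 (adjusted p = 0.00606, edgeR on 2-kb counts). Mvd begins or ends 656 bp from Cyba, so these 2 kb also reach into Mvd.

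Marcksl1 carried the largest rise of the 9 windows tested. It encodes a MARCKS-like protein that binds actin and is a substrate of protein kinase C, at chr4:129513581-129515981 on the plus strand, 123 bp from Hdac1. The upstream window (5443 bp before the start, chr4:129508038-129508237) held 3, 1 and 1 counts in controls and 14, 30 and 21 with RANKL, or 3.26, 1.02 and 2.20 CPM against 43.5, 64.3 and 25.3 CPM. It was near the limit of detection in every control and open in every RANKL library. The rise was 4.24 ± 0.55 on the log2 scale (adjusted p = 4.352e-12, edgeR; 4.999e-12 without the filter) and kept its call in the 13 alternatives that tested it; thinned to equal depth, the window was too low to test. Around it, 2-kb counts were 19, 19 and 6 in controls and 38, 53 and 70 with RANKL, a smaller rise of 2.20 ± 0.29 (adjusted p = 4.5e-08, edgeR on 2-kb counts).
The start window (chr4:129513489-129513688), partly shown in capitals above, stood at 3.26, 8.19 and 24.2 CPM in controls and 21.7, 38.6 and 22.9 CPM with RANKL. Control replicate 3 lay within the RANKL range. The window rose by 1.52 ± 0.47 (adjusted p = 0.00906, edgeR), but not in the surrounding 2 kb (0.36 ± 0.29, adjusted p = 0.455). Leaving out control 1 (adjusted p = 0.144), control 2 (0.0718) or RANKL 2 (0.152) each ended the call.
Of the 2-kb reads around the upstream window, the central 200 bp held 11.4% in controls (Wilson 95% interval 4.95% to 24.0%) and 40.4% with RANKL (33.1% to 48.1%), reads being pooled over each group. At the start the shares were 22.7% (15.5% to 32.0%) and 41.5% (32.6% to 51.0%). These intervals cover counting error only. At both windows every RANKL library had a higher share than every control, by little at the start, where control replicate 3 had 32.4% and RANKL replicate 1 had 33.3%. The exact permutation test gave p = 0.1, two-sided, the smallest possible, for these and for the Gp2 window at 40727 bp, and 0.5 after adjustment over the 15 windows compared. Over all windows the share went the other way: it lay between 39.9% and 41.0% in the controls and between 33.9% and 36.5% with RANKL. The ratio of upstream to start counts was 1, 0.125 and 0.0909 in controls and 2, 1.67 and 1.11 with RANKL (exact permutation p = 0.1, adjusted 0.133).

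Tnfaip2 rose at its upstream window. It encodes M-Sec, an exocyst-like protein that works with RalA in the growth of membrane nanotubes, at chr12:111442450-111455018 on the plus strand. The window 3378 bp before the gene (chr12:111438972-111439171) stood at 17.4, 9.21 and 6.59 CPM in controls and 27.9, 21.4 and 35.0 CPM with RANKL, with no overlap. It rose by 1.34 ± 0.42 on the log2 scale (adjusted p = 0.0126, edgeR), and leaving out control 2 (adjusted p = 0.0923), control 3 (0.0566) or RANKL 3 (0.246) each ended the call. In 2-kb counts the difference was 0.67 ± 0.27 (adjusted p = 0.0789, edgeR), and with loess offsets added to these it was called (0.83, adjusted p = 0.0317). The window 5486 bp inside (chr12:111449432-111449631) held 8, 13 and 5 counts in controls and 6, 6 and 8 with RANKL, or 11.0 ± 2.31 and 13.7 ± 4.54 CPM (SD, n = 3). It was too low to test, and its 2-kb difference was -0.04 ± 0.32 (adjusted p = 0.957). Upstream counts were 2, 0.692 and 0.6 times those inside the gene in controls and 1.5, 1.67 and 3.63 times with RANKL, ranges that overlapped (exact permutation p = 0.3, two-sided).

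**Figure D3:**
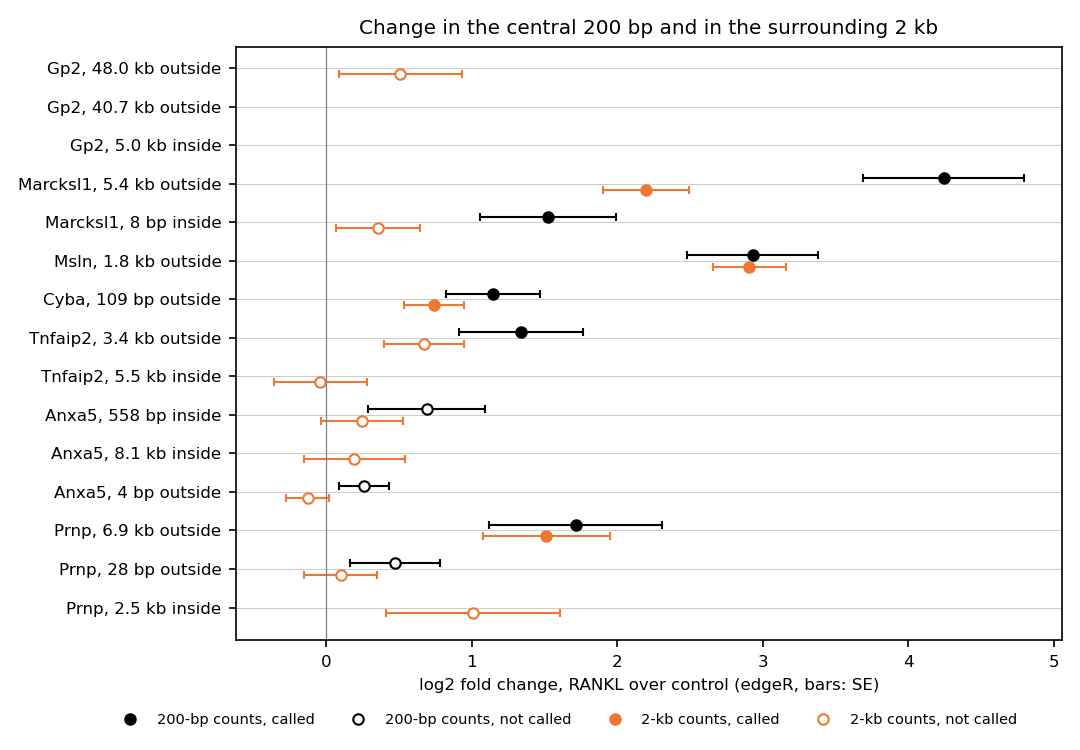
Log2 fold change of RANKL over control (edgeR, bars: SE) in the central 200 bp (black) and in the surrounding 2 kb (orange), filled where the adjusted p was at or under 0.05 and open where not; windows too low to test have no symbol. The Msln values coincide at 2.93 and 2.91, the Marcksl1 upstream rise is 4.24 against 2.20, and the Anxa5 start has 0.26 against -0.13, a sign that loess offsets turn to 0.18.

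The wider windows, which include the reads of the central 200 bp, gave 4 of the 6 calls again. In 2-kb counts 13 of the 15 windows were tested and 4 were called higher, against 8.37% of the windows tested. On the deposited 2-kb score, a log count centred and scaled within each library, 4 of 15 were higher (limma, adjusted p at or under 0.05), against 5.84% of all. By both measures these were the windows upstream of Marcksl1 and Prnp, the one near Msln and the one at the Cyba promoter. The 2-kb counts were recovered from this score, so the 2 measures rest on the same reads and are not independent. Score differences were 1.70 for Marcksl1 (adjusted p = 1.993e-06, limma), 2.32 for Msln (8.929e-10), 0.71 for Cyba (0.00314) and 0.96 for Prnp (0.0433), in units of a library's SD. That SD of the log counts was 0.956 to 1.02 in controls and 0.748 to 0.850 with RANKL. Equal log counts therefore need not give equal scores, and the part of this scaling in the score differences was not tested. The Prnp score difference lost its call when any 1 of the 6 libraries was left out (adjusted p up to 0.108, limma).

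Because all windows had 1 width, their levels can be set in order. In controls the Anxa5 start led with 91.9 ± 4.90 CPM, followed by the Prnp start with 28.9 ± 3.61, the Cyba promoter with 20.3 ± 2.07 and the Anxa5 window near its far end with 16.3 ± 3.13 CPM (SD, n = 3). With RANKL the Anxa5 start still led with 111 ± 19.5 CPM. Next came the Marcksl1 upstream window with 44.4 ± 19.5, Cyba with 40.7 ± 13.9, Msln with 40.3 ± 8.32 and the Prnp start with 38.4 ± 4.05 CPM, which did not differ from each other beyond their spread.

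Summed over each gene's windows, 4 of the 6 genes tested rose with RANKL and 0 fell, against 7.04% higher and 8.30% lower among the 12484 genes tested. Marcksl1 went from 14.0 ± 10.8 to 72.1 ± 28.0 CPM (2.53 ± 0.34 on the log2 scale, adjusted p = 4.674e-11, edgeR). Msln rose by 2.86 ± 0.49 (adjusted p = 5.54e-07, edgeR). Cyba rose by 1.06 ± 0.35 (adjusted p = 0.0196, edgeR), a call lost with the replicate block (0.94, adjusted p = 0.0751), without control replicate 1 (adjusted p = 0.0806) and without RANKL replicate 3 (0.348). Prnp went from 40.3 ± 1.84 to 66.4 ± 8.09 CPM (0.70 ± 0.25, adjusted p = 0.0341, edgeR). Its call was lost with the replicate block (adjusted p = 0.0504) and when any of 5 libraries was left out (0.0577 to 0.145), RANKL replicate 1 being the exception. It was also lost when thinned to equal depth (0.21, adjusted p = 0.742), within 1 kb (0.33, adjusted p = 0.577) and within 5 kb (0.42, adjusted p = 0.371). Under the block 2 of the 6 genes were called, Marcksl1 and Msln, as with DESeq2, which gave adjusted p = 0.112 for Cyba and 0.138 for Prnp. Tnfaip2 went from 22.1 ± 4.26 to 41.8 ± 6.60 CPM, with a difference of 0.85 ± 0.34 that did not pass the test (adjusted p = 0.0695, edgeR) but passed in libraries thinned to equal depth (1.47, adjusted p = 0.0132). Anxa5 went from 120.3 ± 2.80 to 157.5 ± 24.9 CPM, a difference of 0.32 ± 0.15 (adjusted p = 0.144, edgeR), which passed without RANKL replicate 3 (0.50, adjusted p = 0.0498) and with loess offsets for the trend of fold change with level (0.42, adjusted p = 0.0374). Gp2 did not pass the filter.

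**Figure D4:**
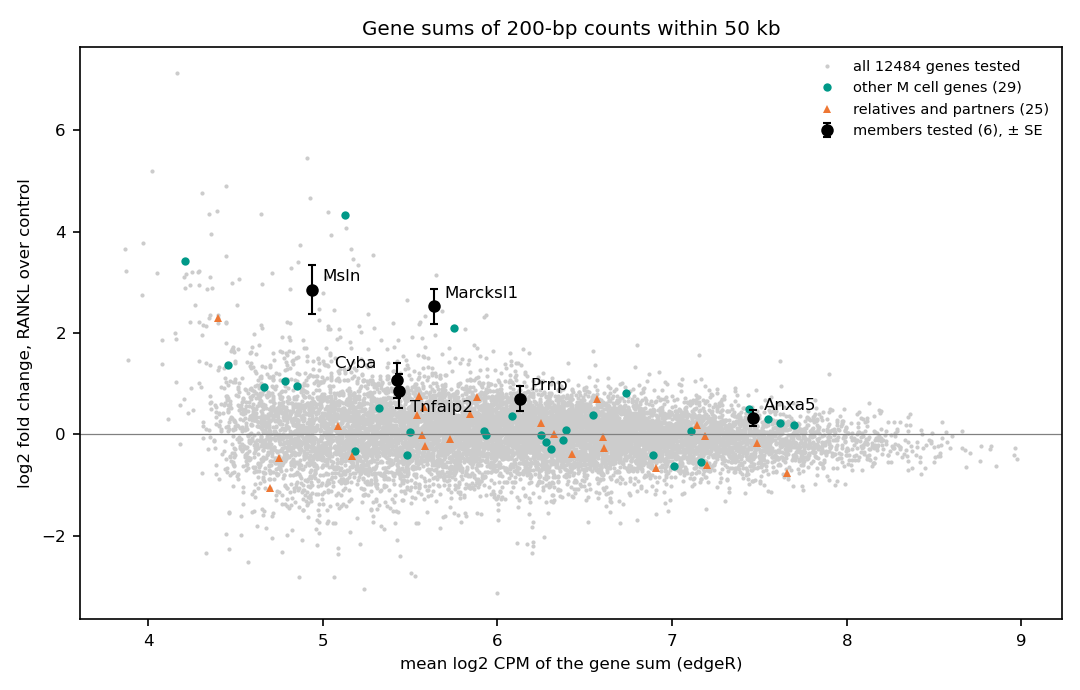
Log2 fold change of RANKL over control against mean log2 CPM for the 12484 genes tested (grey), the 6 tested genes described here (black, ± SE), 29 other M cell genes (green circles) and 25 relatives and partners (orange triangles). Msln at 2.86 and Marcksl1 at 2.53 stand above most genes of their level, while Anxa5 at 0.32 lies in the main body of points.

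Of 40 other genes known from M cells, 36 had windows, 29 were tested, 5 rose and 2 fell. Over all genes tested, 7.04% rose and 8.30% fell, so the 2 falls lie near the share over all genes. The median log2 difference was 0.18, against 0.01 over all genes tested. The members that rose were H2-M2, a class I-like histocompatibility gene (4.32 ± 0.52, adjusted p = 9.78e-14, edgeR), Sox8, a transcription factor of M cell maturation (3.42), Calcb, a calcitonin-related peptide (2.10, adjusted p = 3.50e-09), Nfkb2, the noncanonical NF-kB subunit (0.81), and Tnfrsf11a, which encodes RANK (0.50). Atoh8, a basic helix-loop-helix factor that limits M cell number, fell by 0.62 and Ctsh, cathepsin H, fell by 0.54 as a sum. The called Ctsh windows went opposite ways. That 13152 bp outside the gene gave 2.32 (adjusted p = 0.00153, edgeR), and that 6036 bp outside gave -1.79 (adjusted p = 7.89e-04, edgeR). Among the genes of this list not called, Smpd3, Relb and Cldn4 had the highest levels, with differences of 0.18, 0.21 and 0.30. Since H2-M2 and Sox8 reached the filter in no control library, they could enter the test only through RANKL libraries. Without the filter their adjusted p was 5.86e-14 and 2.65e-04 (edgeR). Spib and Ccl9, with 0 to 4 counts in each control, were too low to test. Without the filter they rose by 3.42 (adjusted p = 0.00230, edgeR) and 3.13 (0.0421), in a fit that called 937 of 16018 genes higher. In 2-kb counts 36 of the other M cell genes were tested and 15 were higher, against 9.39% of all genes tested in that fit.

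Of 40 relatives and known partners of the 7 genes, 31 had windows, 25 were tested, 3 rose and 3 fell, with a median of -0.03. These counts lie near what 7.04% higher and 8.30% lower over all genes would give. Marcks, the paralogue of Marcksl1, went from 194 to 111 CPM and fell by 0.76 ± 0.15 (adjusted p = 2.06e-05, edgeR), while Marcksl1 rose; the difference between them was not itself tested. Of 11 listed annexins, 10 were tested, 0 rose and 2 fell, Anxa1 (-0.61 ± 0.17, adjusted p = 0.00587, edgeR) and Anxa11 (-0.66 ± 0.19, adjusted p = 0.00779, edgeR). Of 12 oxidases, subunits and regulators that work with or beside p22phox, 6 were tested and 1 rose, Ncf4, the cytosolic subunit p40phox, from 4.30 to 26.3 CPM (2.29 ± 0.59, adjusted p = 0.00196, edgeR; 0.00356 without the filter, which it passed through RANKL libraries alone). Nox1 and Cybb, catalytic subunits that pair with p22phox, were too low to test, at 1.04 and 7.86 CPM in controls and 8.24 and 4.39 CPM with RANKL. Near Tnfaip2, Exoc3l4, a gene of the same exocyst-like family that begins or ends 10770 bp away, rose by 0.74 ± 0.28 (adjusted p = 0.0473, edgeR; 0.0551 without the filter). Rala, the GTPase partner of M-Sec, rose by 0.70 ± 0.21 (adjusted p = 0.00989, edgeR). Its window 24798 bp outside the gene gave 2.85 (adjusted p = 4.90e-10, edgeR), whereas the window 23 bp outside its other end gave -0.11 (adjusted p = 0.804, edgeR). Prnd, the doppel paralogue of Prnp, was too low to test, at 8.89 CPM in controls and 25.9 CPM with RANKL. Without the filter it was called higher, by 1.55 on the log2 scale (adjusted p = 0.0210, edgeR). Among those not called, Anxa2, Anxa4 and Ralb had the highest levels, with differences of -0.18, -0.03 and 0.19.

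Markers of other cells were measured in the same way. Of 16 haematopoietic markers 9 had windows, 7 were tested and 1, Zap70, rose; their summed level was 193 to 230 CPM in controls and 180 to 262 CPM with RANKL. Of 10 mesenchymal markers 9 had windows, 6 were tested and 1 rose, Pdgfrb (187 to 244 CPM summed in controls, 220 to 268 CPM with RANKL). Of 6 endothelial markers 5 had windows, 3 were tested and 1 rose, Cdh5 (121 to 166 and 114 to 161 CPM). No marker of these lists was called lower. Over all genes tested, 7.04% were called higher and 8.30% lower. The part of these other cells in the results on the 7 genes was not tested.

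For each tested gene, the well covered gene whose log2 level over the 6 libraries was most like it was found among 6241 or 6242 others, as a description without a test; all points share the split into treated and control libraries. These were Map3k12 for Marcksl1 (Pearson r = 0.9997), Ift27 for Msln (0.994) and Rala for Cyba (0.987). For Tnfaip2 it was Snrpd2 (0.999), for Anxa5 Dnajb1 (0.990) and for Prnp Clptm1 (0.990). Each r is the highest of 6241 or 6242 values on 6 libraries, so selection alone can bring it near 1. Shared regulation was not tested. Map3k12 (0.39, adjusted p = 0.117, edgeR), Snrpd2 (0.51, 0.0731) and Dnajb1 (0.25, 0.382) were not themselves called. Ift27 (0.77, 0.0046), Rala (0.70, 0.00989) and Clptm1 (0.98, 9.78e-04) were called higher.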

How the data were processed

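The authors deposited whole-number counts for 6 libraries over 55056 windows, each 200 bp wide, and a score in the 2 kb around 55050 of them. Both tables were used whole. Judging by its values, the deposited score is ln(count + 1), centred and scaled by library; undoing this gave 2-kb counts at most 0.0074 from whole numbers. Per the submitters' processing notes, builds mm10 and GRCm38 and the tools MACS2 2.2.7, DESeq2 1.34.0, Picard, BWA 0.7.17 and fastp 0.20.1 were used, with no role given. How windows were chosen, and whether reads were shifted or duplicates removed, is not given in the sources used here; counted duplicates would make errors look smaller.

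Windows went to the nearest end of 21896 RefSeq protein-coding genes (GRCm38.p6). A window nearest to an end that genes share (52 windows) counted for each of them. Coordinates are 1-based. The test of window counts and of their sums by gene was edgeR 4.0.16 (TMM, filterByExpr, robust quasi-likelihood; R 4.3.3), and that of the score limma 3.58.1. SE is the absolute log2 fold change over the root of F. Scripts were tested on simulated data. Inside a gene, exon and intron were not distinguished. Exact permutation tests used scipy 1.17.1.

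The 7 genes and the lists were chosen with earlier results of these data known. The text names all windows of the 7 genes, every called gene of the 2 related lists and their 3 uncalled genes of highest level. Labels give both groups the same experiment numbers, so a fit with that number as a block was made; deviations of same-numbered libraries from their group means correlated at -0.032 to 0.016. Alternatives were DESeq2 1.42.0, RLE scaling, no filter, each library left out, the block, thinning to equal depth, loess offsets, 2-kb counts and distances of 1, 5 and 200 kb. 2-kb counts with loess offsets, and shared ends given to 1 gene, were added after seeing the data.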

Additional observations from a re-analysis of the deposited data

How the results depend on the processing

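Of 103 alternative fits of the 6 gene sums, 85 left direction and call as they were, 15 ended a call, 3 made one and 0 turned the direction. For the 9 tested windows the numbers were 96, 19, 0 and 1 of 116, and for the 15 scores 103, 6, 2 and 4 of 115. The Msln gene sum kept its call in the 16 alternatives that tested it, which leave out thinning and the 1-kb limit, and Marcksl1 lost that of its gene sum within 1 kb only, of 18 (1.39, adjusted p = 0.0531, edgeR), where the upstream window is left out by construction. Signs turned, none of a called value, for the Anxa5 start in 2-kb counts (-0.13) and score differences of Gp2 at 5044 bp without control replicate 2 (-0.019; up to 0.415 with another library left out), Anxa5 at 8058 bp without control replicate 2 (-0.091) or RANKL replicate 2 (-0.152; up to 0.140) and the Prnp start without RANKL replicate 2 (-0.098; up to 0.305).

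The 6 windows called higher became 2 with DESeq2, 1 when thinned to equal depth (where 2 were tested) and 3 to 5 with 1 library left out. The 4 genes called higher became 2 with DESeq2, 2 with the replicate block, 2 when thinned, 1 within 1 kb and 2 to 4 with 1 library left out. The block changed no call on the 7 genes other than those named in the report. Other M cell genes called higher (5) were joined by Spib and Ccl9 without the filter. The 5 became 3 when thinned, 15 in 2-kb counts and 15 in 2-kb counts with loess offsets. Within 1 kb they became 2, within 5 kb 3, and with 1 library left out 3 to 6. Those lower (2) became 0 with DESeq2, 0 when thinned, 1 with loess offsets, 1 within 1 kb and 0 to 2 with 1 library left out. Relatives called higher (3) became 1 with DESeq2, 0 when thinned, 5 in 2-kb counts, 5 with loess offsets added to these and 1 to 4 with 1 library left out; those lower (3) became 1 with DESeq2, 1 in 2-kb counts with loess offsets, 0 within 1 kb, 1 within 5 kb and 2 to 3 with 1 library left out. The cause was not tested, beyond the smaller number of windows or counts that thinning and nearer limits leave.

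Loess offsets took the higher share of all called 2-kb windows from 45.2% to 56.4%. Where shared ends go to 1 gene, Prnp keeps 1 window, which was too low to test. Gp2 windows hold 0 to 9 counts per library, which leaves them untested.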
